A study of Mus musculus with 23 samples.

Results

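Globins and erythroid genes were followed through the lungs of Rarres1 knockout (KO) and wild-type (WT) mice: the adult alpha globins Hba-a1 and Hba-a2, the adult beta globins Hbb-bs and Hbb-bt, the embryonic globins Hbb-y and Hba-x, the erythroid transcription factor Klf1, the haem enzyme Alas2, and the red cell membrane proteins Kel and Slc4a1. They were taken by symbol and make up 10 of the 24411 genes in the deposited tables. Because the paired adult globins are near-identical, Hba-a1 and Hba-a2 were summed as the alpha pair and Hbb-bs and Hbb-bt as the beta pair, which left 8 units. Total RNA of whole lung was sequenced in 23 libraries of 7 groups, all from the C57BL/6 strain background, untreated and housed in a pathogen-free barrier. At embryonic day 19.5 (E19.5), the last days before birth, there were 3 KO and 3 WT lungs, with no sex given. At 10 months there were 3 KO and 3 WT lungs, all male. At 18 months there were 3 lung tumours from male KO mice, 5 non-tumour lungs from male KO mice and 3 lungs from male WT mice. The tumours and 3 of the KO non-tumour lungs carry the same animal codes, 1, 3 and 6. Every tumour came from a KO mouse, so tumour and genotype can be set apart only against KO lung. The labels number the embryos and males of each group one by one and do not say how the allele was made.

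Adult haemoglobin is built of alpha and beta chains, each carrying a haem, and the embryonic chains Hba-x (zeta) and Hbb-y (epsilon y) are made mainly by the primitive red cells of the early embryo. Klf1 switches on beta globin and many membrane and haem genes in red cell precursors together with Gata1, which binds GATA sites, while Klf1 itself binds CACCC boxes. Red cells lose their nucleus as they mature, so circulating cells hold only the messages left from the marrow or fetal liver, globin messages above all. The lung is rich in blood, and in whole-lung RNA a lower value can mean fewer red cells or less RNA in each cell, which cannot be told apart here.

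Each library had 23661181 to 46566642 rounded expected counts and between 17318 and 17890 genes with a count. Rarres1 had 0 or 1 read in every KO library, tumours included, and 24 to 64 reads in WT libraries. Rows named for globins took 0.149 to 2.27% of the counts of a library. Levels are given as CPM, counts scaled to library size with TMM factors over all 23 libraries. Where genes are compared with each other, the deposited FPKM, scaled to gene length and library size, are used. Groups were compared with edgeR's quasi-likelihood test, and a change was called at a Benjamini-Hochberg adjusted p under 0.05 over all genes tested. Fold changes are log2 values ± SE, and counting error is the only error that intervals on pooled counts cover.

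The paired globin genes are shown first because their sequences decide how far a read can be placed on one of them. Over their 429 coding bases, Hba-a1 and Hba-a2 differed at 1 base, C381T, and over 444 coding bases Hbb-bs and Hbb-bt differed at 1 base, C417T (positions counted from the A of the start codon, the Hba-a1 and Hbb-bs base first). Both bases lie in coding sequence of exon 3. The stretch around each is given in the direction of the gene, from GRCm38, with the differing base in capitals: Hba-a1 at chr11:32284313-32284373 (plus strand), Hba-a2 at chr11:32297130-32297190 (plus), Hbb-bs at chr7:103826668-103826722 (minus) and Hbb-bt at chr7:103812659-103812713 (minus).
Hba-a1: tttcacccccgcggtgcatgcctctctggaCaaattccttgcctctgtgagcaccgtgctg
Hba-a2: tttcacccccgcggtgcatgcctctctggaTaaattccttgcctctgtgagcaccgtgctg
Hbb-bs: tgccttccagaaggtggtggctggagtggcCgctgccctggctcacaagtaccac
Hbb-bt: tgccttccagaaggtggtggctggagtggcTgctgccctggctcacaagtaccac

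Hba-x (chr11:32276600-32278116), Hba-a1 (chr11:32283672-32284486) and Hba-a2 (chr11:32296492-32297310) follow each other on chromosome 11, where Slc4a1 (chr11:102348820-102365281) also lies. Hbb-bt (chr7:103812524-103813923), Hbb-bs (chr7:103826523-103827928) and Hbb-y (chr7:103851754-103853207) stand on chromosome 7. Klf1 is at chr8:84901982-84905291, Kel at chr6:41686329-41704334 and Alas2 at chrX:150547417-150570622, all in GRCm38. The 250 bases before the start of a gene could be read for 9 of the 10 members from RefSeq (GRCm38.p6) and were searched on both strands for GATAA, the letters Gata1 binds, for CACCC, the box Klf1 binds, for the promoter box CCAAT and for the TATA box TATAA. All 9 held at least 1 GATAA and at least 1 CACCC, a combination found in 10.1% of 32851 promoters of the same length. GATAA alone was in 22.6% and CACCC alone in 52.0% of those promoters. CCAAT was in 6 of the 9 against 33.8% of all promoters, and TATAA in 6 of the 9 against 22.8%. These are matches of letters only. The Hba-a1 and Hba-a2 windows hold nearly the same sequence, so the 9 are not 9 separate promoters.

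Promoters of 5 members are printed with these motifs in capitals, on whichever strand they were found, to set adult against embryonic globin genes and globin against enzyme and membrane protein: Hba-a1 (chr11:32283422-32283671, plus strand), Hbb-bs (chr7:103827929-103828178, minus), Hbb-y (chr7:103853208-103853457, minus), Alas2 (chrX:150547167-150547416, plus) and Kel (chr6:41704326-41704575, minus, which overlaps the first bases of the gene as placed above).
Hba-a1: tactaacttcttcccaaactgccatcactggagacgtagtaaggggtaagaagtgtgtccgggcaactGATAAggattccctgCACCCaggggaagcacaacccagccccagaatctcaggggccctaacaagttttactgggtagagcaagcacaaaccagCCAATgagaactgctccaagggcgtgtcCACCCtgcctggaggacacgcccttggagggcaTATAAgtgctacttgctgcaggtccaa
Hbb-bs: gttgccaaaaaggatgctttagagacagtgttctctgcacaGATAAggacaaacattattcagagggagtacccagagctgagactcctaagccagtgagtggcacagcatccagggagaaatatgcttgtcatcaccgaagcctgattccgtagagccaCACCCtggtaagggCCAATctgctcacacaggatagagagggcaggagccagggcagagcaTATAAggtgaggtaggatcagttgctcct
Hbb-y: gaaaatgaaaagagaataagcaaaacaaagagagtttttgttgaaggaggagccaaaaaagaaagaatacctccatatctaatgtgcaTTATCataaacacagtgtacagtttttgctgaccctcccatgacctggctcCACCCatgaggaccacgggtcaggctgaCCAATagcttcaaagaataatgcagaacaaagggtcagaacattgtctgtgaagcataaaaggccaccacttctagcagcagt
Alas2: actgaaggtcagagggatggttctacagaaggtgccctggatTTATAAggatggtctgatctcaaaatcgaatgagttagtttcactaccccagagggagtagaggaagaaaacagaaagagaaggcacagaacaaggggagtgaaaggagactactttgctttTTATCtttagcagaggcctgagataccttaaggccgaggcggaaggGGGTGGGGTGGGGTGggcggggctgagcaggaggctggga
Kel: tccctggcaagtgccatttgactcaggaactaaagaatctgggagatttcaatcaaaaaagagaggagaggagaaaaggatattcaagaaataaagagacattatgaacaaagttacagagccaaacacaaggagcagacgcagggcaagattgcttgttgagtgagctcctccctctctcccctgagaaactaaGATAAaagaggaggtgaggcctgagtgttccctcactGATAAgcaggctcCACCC
The Hba-a1 and Hbb-bs promoters each held all 4 motifs on the gene's own strand. The Hbb-y window held no TATAA and carried GATAA on the opposite strand. In Alas2 3 CACCC boxes and the GATAA lay on the opposite strand and there was no CCAAT, and in Alas2 the TATAA matches on the 2 strands overlapped. Kel held 2 GATAA and 1 CACCC, with neither CCAAT nor TATAA.

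How reads were shared between near copies set 3 libraries apart. Hba-a1 held 53.6 to 80.1% of the alpha pair in 20 libraries, 0% in tumour 6, almost none in KO lung 6 and 5.85% in KO lung 7, all at 18 months. Most counts of adult beta globin were placed on 2 rows that are not members, Hbb-b1 and Hbb-b2. These are the names given to the adult genes of the diffuse haplotype of other strains, while Hbb-bs and Hbb-bt are those of the single haplotype that C57BL/6 carries. Hbb-b1 held 71.3 to 80.1% of the 4 adult beta rows in the same 20 libraries, against 39.6% in tumour 6, 58.7% in KO lung 6 and 65.1% in KO lung 7. Hbb-b2 and Hbb-bt held the same count in 23 of 23 libraries. The division of reads among these rows is an estimate and does not show which beta genes or haplotype were expressed.

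The beta pair therefore holds a small and uneven part of the counts placed on the adult beta rows. It made up 11.6 to 16.7% of the 4 rows in 20 libraries, and 52.6%, 33.9% and 27.2% in tumour 6, KO lung 6 and KO lung 7. Hbb-bs alone made up 2.79 to 6.70% in those 20 libraries and 44.9%, 26.4% and 19.5% in the other 3. Per length, alpha pair over the sum of the 4 beta rows was 1.04 to 1.49 in 20 libraries and 1.86, 1.91 and 1.94 in tumour 6, KO lung 6 and KO lung 7. Why these libraries stand apart was not tested. The sum of the 4 rows is given beside the beta pair, and results that rest on these libraries are given without KO animals 6 and 7, both as alternatives chosen after seeing the data.

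**Figure D1:**
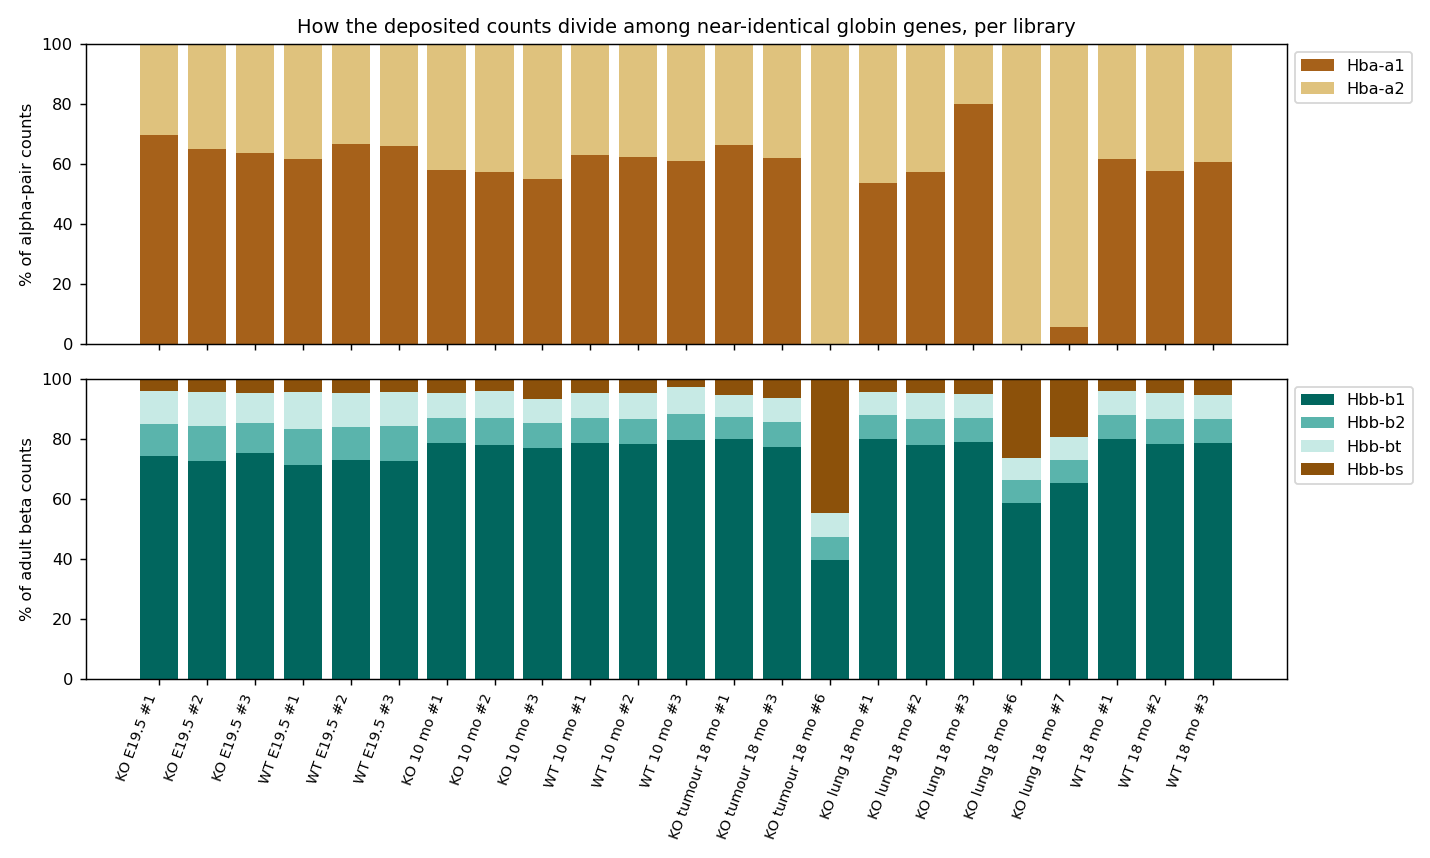
Division of the alpha pair counts between Hba-a1 and Hba-a2 (upper panel), in percent, with 1 stacked bar for each library, ordered by group. The lower panel divides the 4 adult beta rows among Hbb-b1, Hbb-b2, Hbb-bt and Hbb-bs. Tumour 6, KO lung 6 and KO lung 7 lie near 0 to 5.85% for Hba-a1, where the other 20 libraries lie at 53.6 to 80.1%.

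The alpha pair was the most abundant of the 8 units in every library. At E19.5 it had 10240, 9839 and 7950 CPM in KO lungs and 12390, 7053 and 9658 CPM in WT lungs. At 10 months the alpha pair had 3217, 7735 and 2694 CPM in KO lungs and 3877, 3273 and 3330 CPM in WT lungs. At 18 months it had 756, 908 and 2103 CPM in tumours 1, 3 and 6, then 2607, 3310, 1910, 3928 and 2526 CPM in KO lungs 1, 2, 3, 6 and 7, and 7447, 2826 and 3191 CPM in WT lungs. KO and WT overlapped at each age, and 2 adult lungs, KO replicate 2 at 10 months and WT replicate 1 at 18 months, stood well above all other adult lungs, between the lowest WT and the lowest KO embryo. Tumour 6 lay within the range of KO lungs and the other 2 tumours lay below it. The group means, from high to low, stood in the order WT and KO at E19.5, KO at 10 months, WT at 18 months, WT at 10 months, KO lung at 18 months and tumours. Of these steps only that between KO embryos and KO lungs at 10 months separated neighbouring groups without overlap.

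The beta pair had 1611, 1405 and 953 CPM in KO lungs and 1661, 1006 and 1312 CPM in WT lungs at E19.5. At 10 months it had 446, 1135 and 409 CPM in KO lungs and 520, 417 and 411 CPM in WT lungs. At 18 months it had 110, 141 and 724 CPM in tumours, 315, 487, 226, 837 and 427 CPM in KO lungs, and 938, 384 and 416 CPM in WT lungs. The same high lungs stood out at 10 and 18 months, and tumour 6 and KO lung 6, with their larger share of beta reads under Hbb-bs, were also high.

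With all 4 adult beta rows summed, beta globin had 10740, 8868 and 6440 CPM in KO lungs and 9967, 6302 and 8242 CPM in WT lungs at E19.5. At 10 months the 4 rows had 3376, 8603 and 2756 CPM in KO lungs and 3950, 3131 and 3534 CPM in WT lungs. At 18 months they had 869, 965 and 1375 CPM in tumours, 2589, 3632, 1720, 2471 and 1573 CPM in KO lungs, and 7826, 2862 and 3100 CPM in WT lungs. On this sum all 3 tumours lay below all 5 KO lungs. Alpha pair over these rows, per length, was high in tumour 6 (1.86), KO lung 6 (1.91) and KO lung 7 (1.94). Where these libraries stand on the beta sum is therefore uncertain.

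**Figure D2:**
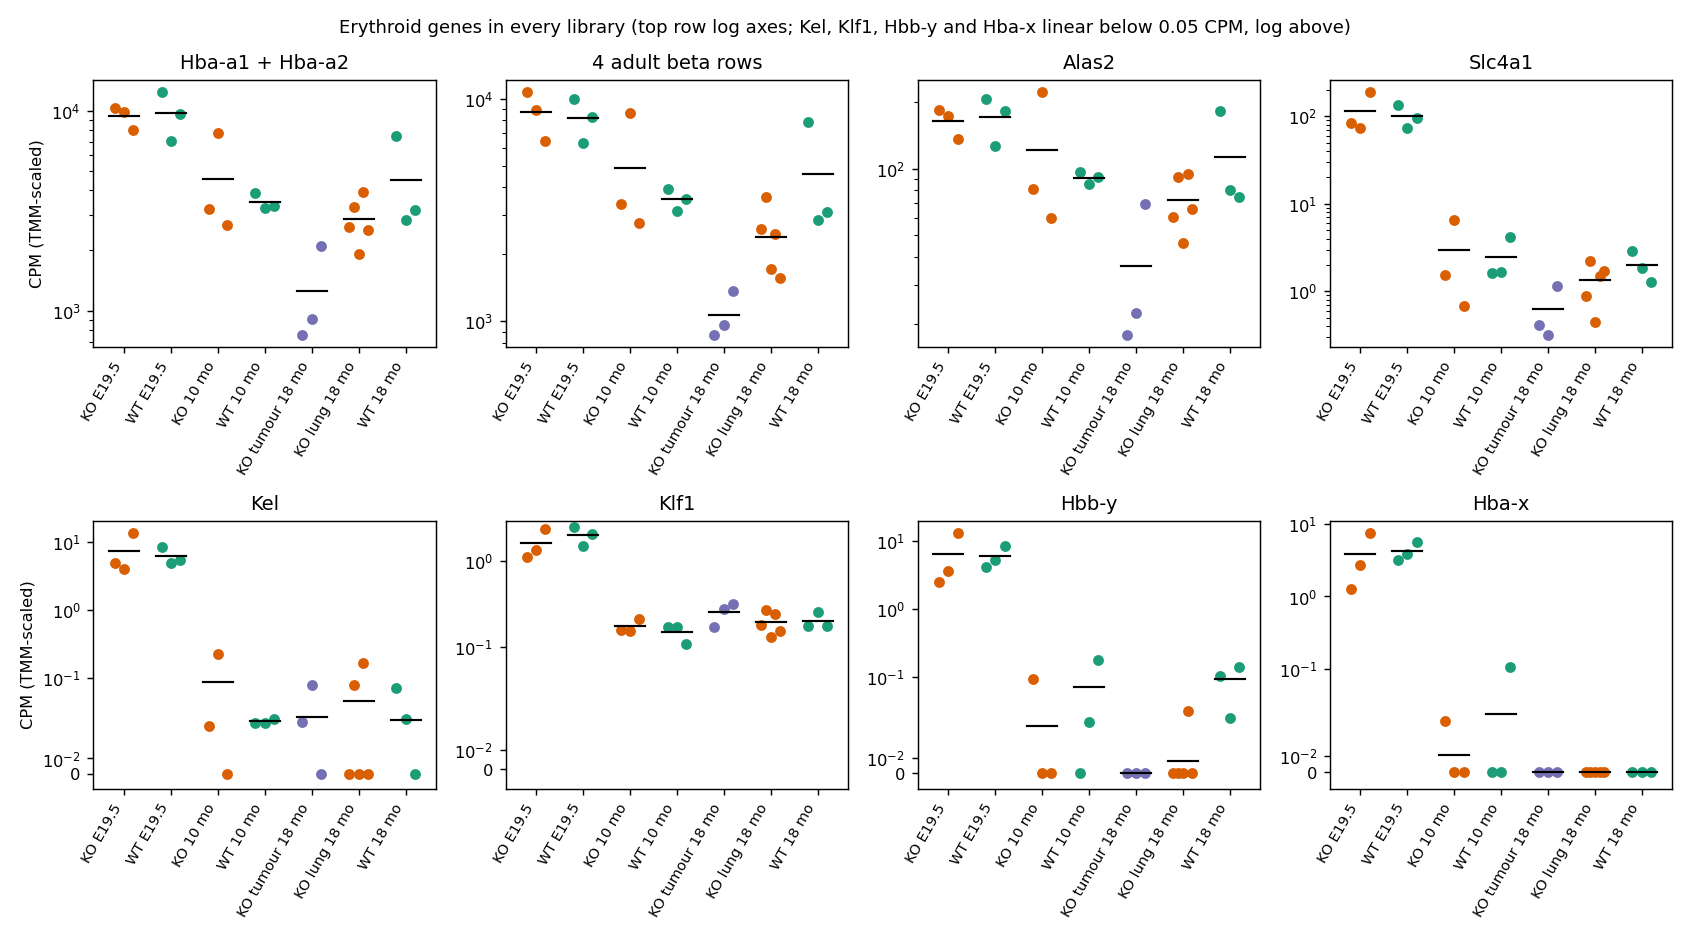
Level of the alpha pair, the 4 adult beta rows and 6 other members in every library, in CPM on log axes that turn linear near 0 in the lower row, by group, with a bar at each group mean. Embryos lie apart from adult lungs for Slc4a1, Kel, Klf1, Hbb-y and Hba-x, and for the alpha pair tumours 1 and 3 lie lowest with tumour 6 at 2103 CPM.

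The embryonic globins were read in fetal lung at a small part of the adult chains. Hbb-y had 2.47, 3.65 and 12.98 CPM in KO lungs and 4.16, 5.26 and 8.37 CPM in WT lungs at E19.5. Per length this was 0.0237 to 0.207% of the adult beta rows in the 6 embryos. Hba-x had 1.27, 2.74 and 7.41 CPM in KO lungs and 3.16, 3.81 and 5.66 CPM in WT lungs, or 0.0112 to 0.0840% of the alpha pair per length. For both genes KO replicate 3 was the highest of the 6 embryos and KO replicate 1 the lowest. In adult lungs Hbb-y had 0 to 5 reads a library and none in the 3 tumours, and Hba-x had 0 to 3 reads at 10 months and none in the 11 libraries of 18 months. Another embryonic chain, Hbb-bh1, had a mean of 0.198 CPM in KO and 0.238 CPM in WT embryos and 0 in every adult library.

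Alas2, the enzyme of the first step of haem synthesis in red cell precursors, had 184, 173 and 137 CPM in KO lungs and 206, 127 and 182 CPM in WT lungs at E19.5. At 10 months Alas2 had 80.7, 223 and 59.8 CPM in KO lungs and 96.5, 85.4 and 92.0 CPM in WT lungs. At 18 months it had 17.7, 22.3 and 69.3 CPM in tumours, 60.7, 91.9, 46.3, 94.9 and 66.0 CPM in KO lungs, and 183, 80.1 and 74.6 CPM in WT lungs. KO replicate 2 at 10 months was higher than every embryo, and tumour 6 stood within the KO lungs while the other 2 tumours lay below. Its level followed the alpha pair: per length, alpha pair over Alas2 was 268 to 300 in embryos and 160 to 219 in adult lungs and tumours.

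The membrane proteins had another course. Slc4a1, the band 3 anion exchanger of red cells, had 83.6, 74.2 and 190 CPM in KO lungs and 135, 72.9 and 94.98 CPM in WT lungs at E19.5. At 10 months Slc4a1 had 1.54, 6.598 and 0.671 CPM in KO lungs and 1.63, 1.66 and 4.18 CPM in WT lungs. At 18 months it had 0.409, 0.316 and 1.14 CPM in tumours, 0.894, 2.22, 0.441, 1.47 and 1.70 CPM in KO lungs, and 2.87, 1.86 and 1.28 CPM in WT lungs. Embryos and adults were far apart for this gene, KO and WT overlapped at each age, and the highest embryo was KO replicate 3. Per length, Alas2 over Slc4a1 was 1.76 to 5.71 in embryos and 54.3 to 254 in adult lungs and tumours.

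Kel, the Kell blood group antigen, had 5.04, 4.03 and 13.7 CPM in KO lungs and 8.50, 4.96 and 5.46 CPM in WT lungs at E19.5, KO replicate 3 again being highest. Kel had 0 to 6 reads in each adult library. Klf1 had 1.10, 1.33 and 2.36 CPM in KO lungs and 2.46, 1.48 and 2.02 CPM in WT lungs at E19.5, and 3 to 8 reads in each adult library. Both genes overlapped between genotypes at every age, and for both all embryos lay above all adults.

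Between 10-month and fetal lung, Hbb-y, Hba-x, Klf1, Kel and Slc4a1 lay further apart than the alpha pair, the beta pair and Alas2. Hbb-y, Hba-x, Klf1 and Kel passed the filter on low counts only through the embryos, so that they differ follows in part from the filter, and their values describe the size. In WT lungs Klf1 was lower at 10 months than at E19.5 by a log2 fold change of -3.71 ± 0.37, with 13 reads in all at 10 months and 161 at E19.5, and in KO lungs it had -3.17 ± 0.43 on 15 and 127 reads. Hbb-y had 6 reads at 10 months and 469 at E19.5 in WT lungs, and Kel had 7 reads at 10 months and 600 at E19.5 in KO lungs. Pooled over the WT libraries of each age, Kel had 3 reads at 10 months and 514 at E19.5, a 193-fold lower level (95% exact interval 65.8 to 941). Hba-x had 3 reads at 10 months and 334 at E19.5, 126-fold lower (42.6 to 612). In KO lungs Hbb-y had 3 reads at 10 months and 494 at E19.5, 182-fold lower (62.1 to 888). Hba-x in KO lungs had 1 read at 10 months and 295 at E19.5, 327-fold lower (58.2 to 13000).

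The 4 units that were well counted at both ages were the alpha pair, the beta pair, Alas2 and Slc4a1. In WT lungs all 4 were lower at 10 months than at E19.5, in a comparison in which 31.2% of all genes tested were called lower. The alpha pair fell by 1.48 ± 0.20 on the log2 scale (adjusted p = 0.000427, edgeR), the beta pair by 1.57 ± 0.19 (adjusted p = 0.000423) and Alas2 by 0.92 ± 0.17 (adjusted p = 0.00317). Slc4a1 fell by 5.36 ± 0.50 on the log2 scale (adjusted p = 0.000608), a 41.1-fold lower level. No WT lung at 10 months reached any WT embryo for these units, where 34.6% of all genes were lower without overlap.

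In KO lungs, where 29.4% of all genes were called lower, Slc4a1 was the only one of these 4 called, with a log2 fold change of -5.34 ± 0.93 (adjusted p = 0.00606). The alpha pair had -1.04 ± 0.40 (adjusted p = 0.0621), the beta pair -1.002 ± 0.46 (adjusted p = 0.111) and Alas2 -0.45 ± 0.54 (adjusted p = 0.511). The alpha pair and Slc4a1 lay lower without overlap, as did 33.8% of all genes, and the beta pair and Alas2 overlapped. KO replicate 2 at 10 months decided these values. The share of all genes called in the fit without it is not given here. Without that library the alpha pair had -1.66 ± 0.17 (adjusted p = 0.000116), the beta pair -1.63 ± 0.22 (adjusted p = 0.000627) and Alas2 -1.23 ± 0.17 (adjusted p = 0.000837). The change with age did not differ detectably between genotypes: the interaction was 0.44 ± 0.50 for the alpha pair (adjusted p = 0.898) and none of the 8 units was called by edgeR or DESeq2, none had an unadjusted p under 0.05, and 0.156% of all genes were called.

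**Figure D3:**
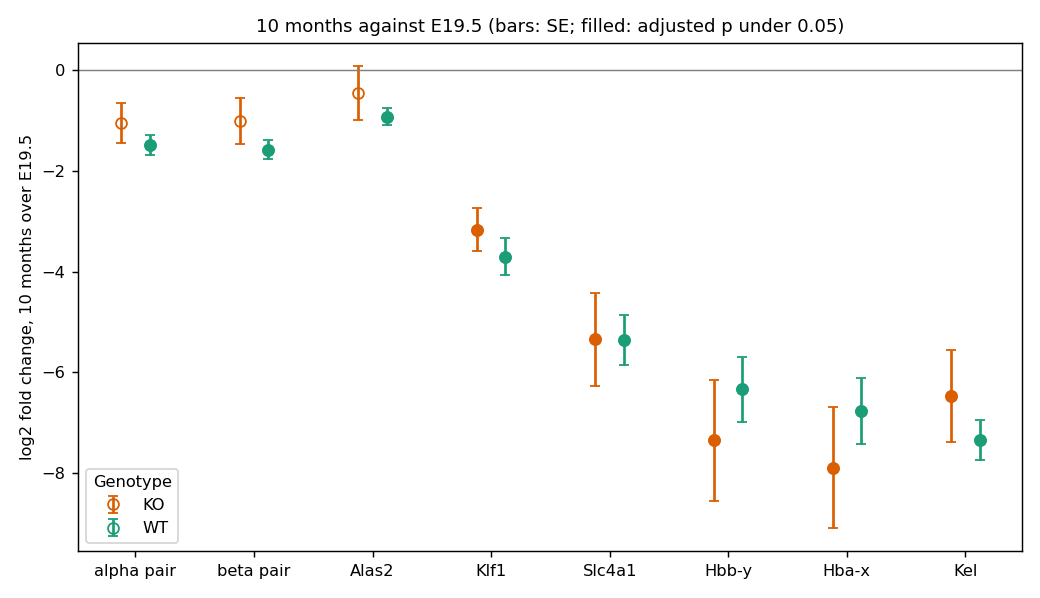
Log2 fold change of each unit at 10 months over E19.5 in KO and WT lungs, from edgeR, with SE; filled points have an adjusted p under 0.05. The alpha pair, beta pair and Alas2 lie between -1.57 and -0.45 and Slc4a1 near -5.3; values for Hbb-y, Hba-x and Kel rest on few adult reads and depend on the prior count.

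Other red cell genes were divided in the same comparison. Of all genes, 31.2% were called lower and 31.6% higher in WT lungs, and 29.4% and 31.1% in KO lungs. The list of red cell membrane and skeleton genes had 12 of 17 members that passed the filter at both ages, and in WT lungs 6 of them were lower and 2 higher at 10 months (median log2 fold change -1.21, against 0.00 for all genes), while in KO lungs 8 were lower and 1 higher (median -1.35). The log2 fold change was -3.81 for Ermap, an erythroid membrane protein, in WT lungs and -0.97 for Gypc, a glycophorin, in KO lungs, both called lower at 10 months. Tmod1, which caps actin filaments in red cells and muscle, was higher, with log2 fold changes of 1.33 in WT and 1.47 in KO lungs. Cldn13, with 2 reads at 10 months and 158 at E19.5 in WT lungs, was 89.1-fold lower (24.3 to 743), and in KO lungs it had 1 read and 120 reads, 133-fold lower (23.4 to 5290). Cldn13 passed the filter only through the embryos in both genotypes. So did Tspo2 in WT (-3.83) and Rhd in KO (-5.92), both of the red cell membrane.

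Of the cytosol and late maturation list, 9 members passed at both ages, of which 7 were lower and none higher in WT lungs (median -0.53) and 5 lower and 1 higher in KO lungs (median -0.31). The shares of all genes are those given above. Car2, a carbonic anhydrase, had log2 fold changes of -1.12 in WT and -1.24 in KO lungs. Trim10, which acts in terminal red cell differentiation, had -3.04 in WT and -2.66 in KO lungs. In KO lungs the antioxidant enzyme Prdx2 had -0.49 and the biliverdin reductase Blvrb -0.59, and all of these were called. Hemgn, an erythroid nuclear protein, had -4.60 in WT lungs. Trim58 had 2 reads at 10 months and 64 at E19.5 in WT lungs, a 36.1-fold lower level (9.60 to 305). Hemgn and Trim58 passed only through the embryos.

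Haem synthesis genes, listed with those of mitochondrial iron import, moved less by their median than the membrane and cytosol lists. The counts of these genes and of the regulators stand beside 31.2% of all genes called lower and 31.6% higher in WT lungs. In KO lungs these shares were 29.4% and 31.1%. Whether either list differs from them was not tested. Of 11 tested, 5 were lower and 1 higher in WT lungs (median -0.16) and 4 lower and 1 higher in KO lungs (median -0.22). The enzymes Alad (-1.06 in WT, -0.86 in KO) and Cpox (-0.62 in WT, -0.67 in KO) were lower at 10 months. Alas1, the counterpart of Alas2 in other cells, was higher, with 1.92 in WT and 2.13 in KO lungs. Erythroid regulators, many of them also active in other blood or lung cells, had 5 lower and 2 higher of 12 in WT (median -0.11), and 3 lower and 3 higher of the 12 that passed at both ages in KO (median -0.07). Sox6 (-1.19 in WT, -0.75 in KO), Ldb1 (-0.84 and -0.63) and Zfpm1 (-0.61 and -0.70) were lower, and Kit, the stem cell factor receptor, was higher, with 0.96 in WT and 0.94 in KO lungs.

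Of the other globin rows, Hbb-b2 is no separate measurement, since its counts are those of the member Hbb-bt. Hbb-b2 had -1.67 and Hbb-b1 -1.09 in WT lungs, both lower at 10 months, and neither was called in KO lungs, where Hbb-b2 had -1.16 and Hbb-b1 -0.75. The minor alpha-like rows Hbq1b and Hbq1a, counted only in the embryos above the filter, had -2.99 and -1.65 in WT and -2.08 and -1.90 in KO lungs.

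Genes of other cells moved too in this comparison, and their part in the results was not tested. Of all genes, 31.6% were called higher at 10 months in WT lungs and 31.1% in KO lungs. Of the haem clearance and iron export list, 5 of 7 genes passing at both ages were higher and 1 lower at 10 months in WT lungs, and 4 higher and 1 lower in KO lungs. Platelet markers had 6 higher and none lower of 11 in WT and 8 higher and none lower of 11 in KO, with a summed level of 105 to 194 CPM in the 10-month lungs and 50.3 to 75.0 CPM in the embryos. Neutrophil markers had 4 higher of 8 in WT and 6 higher of 8 in KO, endothelial markers 9 higher of 10 in WT and 8 higher and 1 lower of 10 in KO, and epithelial markers 5 higher and 1 lower of 8 in each genotype. Heart muscle markers had 1 lower of 10 in WT and 2 lower of 10 in KO, and hepatocyte markers 1 lower of 2 in each.

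KO and WT lungs were compared at each age to see whether loss of Rarres1 goes with a change in red cell genes. At E19.5 none of the 8 units was called by edgeR, DESeq2 or limma, none had an unadjusted p under 0.05, and 0% of all genes were called (145, or 0.947%, at an unadjusted p under 0.05, and 2 by DESeq2). Rarres1 itself, at a log2 fold change of -5.49 ± 0.59, was not called by edgeR at this age (adjusted p = 0.122). A unit that is not called here is therefore not shown to be unchanged. The log2 fold change of KO over WT was -0.05 ± 0.20 for the alpha pair, 0.00 ± 0.23 for the beta pair and -0.06 ± 0.19 for Alas2. For the less abundant units the error was wider: 0.10 ± 0.67 for Hbb-y, -0.15 ± 0.61 for Hba-x, -0.32 ± 0.34 for Klf1, 0.27 ± 0.49 for Kel and 0.20 ± 0.45 for Slc4a1, with adjusted p = 1.00 for each. All 8 units overlapped between genotypes, as did all but 5.07% of all genes. The KO embryo replicate 3 was lowest of the KO embryos for the alpha pair, beta pair and Alas2 and highest of all embryos for Hbb-y, Hba-x, Kel and Slc4a1. Hepatocyte markers summed to 4.54 to 12.3 CPM in KO embryos and 2.95 to 3.80 CPM in WT embryos, none of 2 tested being called, and their part was not tested.

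At 10 months 4 of the 8 units passed the filter and none was called by edgeR, DESeq2 or limma or had an unadjusted p under 0.05, where 1.53% of all genes were called, with 17.4% below that unadjusted p. KO over WT was 0.38 ± 0.47 for the alpha pair (adjusted p = 0.738), 0.56 ± 0.49 for the beta pair (adjusted p = 0.624), 0.40 ± 0.58 for Alas2 (adjusted p = 0.779) and 0.23 ± 0.97 for Slc4a1 (adjusted p = 0.929). All 8 units overlapped between genotypes, where 24.7% of all genes did not. KO replicate 2 set the direction: without it the values were -0.25 for the alpha pair, -0.09 for the beta pair, -0.39 for Alas2 and -1.16 for Slc4a1. Pooled Hbb-y reads were 3 in KO and 6 in WT lungs (1.99-fold lower in KO, 95% exact interval 0.425 to 12.3), and pooled Kel reads were 7 in KO and 3 in WT (2.34-fold higher in KO, 0.535 to 14.0).

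At 18 months the KO non-tumour lungs averaged 2856 ± 778 CPM of the alpha pair (SD, n = 5) and the WT lungs 4488 ± 2569 CPM (SD, n = 3). None of the 4 units that passed the filter was called by edgeR, DESeq2 or limma, none had an unadjusted p under 0.05, and 0.0776% of all genes were called, with 8.04% at an unadjusted p under 0.05. The log2 fold change of KO over WT was -0.66 ± 0.33 for the alpha pair (adjusted p = 0.656), -0.34 ± 0.41 for the beta pair (adjusted p = 0.862), -0.65 ± 0.32 for Alas2 (adjusted p = 0.652) and -0.60 ± 0.47 for Slc4a1 (adjusted p = 0.785). The sum of 4 beta rows had -0.95 ± 0.36 (adjusted p = 0.516), and without KO animals 6 and 7 the beta pair had -0.76 ± 0.43. Outside the units, Hbb-b1 had -1.07 (unadjusted p = 0.0192, edgeR) and Hbb-b2, equal to Hbb-bt, had -0.98 (unadjusted p = 0.0222, edgeR). Neither row was called. All 8 units overlapped, where 6.89% of all genes did not. WT replicate 1, at 7447 CPM of the alpha pair, decided these values. Without it the alpha pair had -0.08, the beta pair 0.20, Alas2 -0.11 and Slc4a1 -0.24. Pooled Hbb-y reads were 1 in KO and 8 in WT lungs, 14.0-fold lower in KO (1.87 to 619). Heart muscle markers summed to 101 to 331 CPM in KO and 467 to 589 CPM in WT lungs, with none of 9 called and all 9 below 0, and platelet markers to 90.7 to 154 CPM in KO and 136 to 169 CPM in WT, with none of 12 called. Their part was not tested.

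In the 5 lists of other red cell genes no member was called by edgeR in any KO against WT comparison, of 56 tested at E19.5, 46 at 10 months and 47 at 18 months, and 0, 7 and 6 of them had an unadjusted p under 0.05, where 0.947%, 17.4% and 8.04% of all genes did at these ages. At 10 months the smallest adjusted p of these lists stood at Epor, the erythropoietin receptor (0.59, adjusted p = 0.0927), and Tfrc, the transferrin receptor (0.24, adjusted p = 0.0942). At 18 months it stood at Ank1, which ties band 3 to the membrane skeleton (-1.004, adjusted p = 0.229).

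The 4 adult beta rows together were lower in lung tumours than in KO lungs, and the alpha pair was below all KO lungs in tumours 1 and 3 and within their range in tumour 6. Tumour 6 held little beta for its alpha pair, so its place below the lungs on the beta rows is uncertain. The alpha pair averaged 1256 ± 738 CPM in tumours (SD, n = 3) and 2856 ± 778 CPM in KO lungs (SD, n = 5). Within the 3 animals that gave both, it was lower in the tumour than in the lung by 3.45-fold in animal 1, 2.10-fold in animal 3 and 1.87-fold in animal 6. The 4 beta rows were lower by 2.98-fold, 1.78-fold and 1.80-fold, and Alas2 by 3.42-fold, 2.08-fold and 1.37-fold in the same animals. Slc4a1 was lower by 2.18-fold, 1.40-fold and 1.29-fold, on 49 reads in all tumours. For each of these the tumour was lower in 3 of 3 animals. The share of all genes lower in 3 of 3 animals is not given here. Alas2 followed the alpha pair across libraries (r = 0.981), so these are not separate results.

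None of the 4 units tested was called, where 13.8% of all genes were called, with 6.6% of all genes called lower. The alpha pair alone of the 4 had an unadjusted p under 0.05, as 29.3% of all genes did, and was called by DESeq2. The log2 fold change of tumours over KO lungs was -1.19 ± 0.38 for the alpha pair (adjusted p = 0.0706, edgeR, and 0.0062, DESeq2), -0.50 ± 0.64 for the beta pair (adjusted p = 0.652), -0.99 ± 0.45 for Alas2 (adjusted p = 0.178) and -1.11 ± 0.61 for Slc4a1 (adjusted p = 0.263). With the animal as a block, fitted only to the animals that gave both tumour and lung, the alpha pair had -1.26 ± 0.31 (adjusted p = 0.0957). The fits without the block treat tumour and lung of the same animal as independent. The sum of 4 beta rows fell by 1.17 ± 0.31 on the log2 scale (adjusted p = 0.0374), and of its rows Hbb-b1 had -1.41 (adjusted p = 0.0251) and Hbb-b2 -1.20 (adjusted p = 0.0360).

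All 8 units overlapped between tumours and KO lungs, where 21% of all genes did not, and the 4 beta rows lay lower without overlap, as did 10.7% of all genes. Tumour 6 decided these calls. The share of all genes called in the reduced fits that follow is not given here, so their calls describe only how far the units rest on the libraries left out. Without it the alpha pair had -1.79 (adjusted p = 0.00349), the beta pair -1.88 (adjusted p = 0.0206), Alas2 -1.85 (adjusted p = 0.00308) and Slc4a1 -1.87 (adjusted p = 0.0693). Without all libraries of KO animals 6 and 7, which leaves 2 tumours and 3 lungs, the alpha pair had -1.64 ± 0.28 (adjusted p = 0.0107), the beta pair -1.44 ± 0.35 (adjusted p = 0.0325), Alas2 -1.72 ± 0.32 (adjusted p = 0.0150) and the 4 beta rows -1.53 ± 0.34 (adjusted p = 0.0236). Kel had 3 pooled reads in tumours and 6 in KO lungs, 1.14-fold lower in tumours (0.244 to 7.06).

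The other red cell genes were mixed in tumours, where 7.21% of all genes were called higher and 6.6% lower. Of 12 membrane genes 2 were lower, Tmod1 (-1.07) and Gypc (-0.85), and 1 higher, Epb42 (1.84), with a median of -0.50 against -0.01 for all genes. Of 12 regulators, Myb (-1.23) and Lmo2 (-0.89), both used in many blood cells, were lower and none was higher (median -0.61). Of 11 haem synthesis genes, the iron importer Slc25a37 (1.39) and Cpox (0.76) were higher and Alas1 (-0.61) lower (median 0.05). No member of the cytosol list was called by edgeR among 8 tested (median 0.02), 3 having an unadjusted p under 0.05 against 29.3% of all genes, among them Tfrc with 0.70 (adjusted p = 0.0608) and Mkrn1, a ubiquitin ligase, with -0.30 (adjusted p = 0.0614). Of the haem clearance list Slc40a1, the iron exporter ferroportin, was higher, with 1.40, as was Hmox1, which breaks down haem, with 1.36, and none of 8 was lower.

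Markers of other cells moved with the tumours, and their part in the lower globin level was not tested. All 10 endothelial markers had a log2 fold change below 0 (median -0.90) and 2 were called lower, with a summed level of 1830, 1920 and 5630 CPM in tumours by rank and 4500 to 6640 CPM in KO lungs. Platelet markers were below 0 in 11 of 12 (2 called lower, median -1.08), with 56.7 to 80.5 CPM in tumours and 90.7 to 154 CPM in KO lungs. Neutrophil markers had 3 lower and none higher of 8, epithelial markers 4 higher and 3 lower of 8 and heart muscle markers 1 higher and none lower of 9. All 4 hepatocyte markers tested were higher, summing to 11.5 to 55.1 CPM in tumours and 2.75 to 3.61 CPM in KO lungs, with 2 of the 9 listed at 0 in each group.

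No unit was called between 18 and 10 months in either genotype by edgeR, DESeq2 or limma, and none had an unadjusted p under 0.05. In KO lungs the alpha pair had -0.67 ± 0.34 (adjusted p = 0.893), the beta pair -0.53 ± 0.44, Alas2 -0.75 ± 0.39 and Slc4a1 -1.14 ± 0.68. The sum of 4 beta rows had -1.04 ± 0.38 (adjusted p = 0.893, edgeR), and without KO animals 6 and 7 the beta pair had -0.96 ± 0.50 and the 4 rows -0.90 ± 0.49. Of the single rows, Hbb-b1 had -1.13 (unadjusted p = 0.0178, edgeR) and Hbb-b2, equal to Hbb-bt, had -1.15 (unadjusted p = 0.0172, edgeR). Of the lists of other red cell genes, these rows included, 6 of 47 in KO and 2 of 46 in WT lungs had an unadjusted p under 0.05. None of them was called. KO replicate 2 at 10 months decided the values in KO lungs: without it the alpha pair had -0.05, the beta pair 0.11, Alas2 0.04 and Slc4a1 0.26. In WT lungs the alpha pair had 0.36 ± 0.43 (adjusted p = 0.904), the beta pair 0.36 ± 0.41, Alas2 0.30 ± 0.41 and Slc4a1 -0.31 ± 0.45. In both comparisons 0% of all genes were called by edgeR (782, or 5.06%, in KO and 833, or 5.44%, in WT at an unadjusted p under 0.05, 11 and 17 by DESeq2). All 8 units overlapped in KO lungs, where 3.62% of all genes did not. In WT lungs, where 10.6% of all genes did not overlap, Klf1 was apart, with 0.175 CPM or more at 18 months and 0.169 CPM or less at 10 months on 3 to 7 reads a library. The difference between the genotypes in this change was -1.03 ± 0.56 for the alpha pair (adjusted p = 1.00). Platelet markers were below 0 in all 12 tested in KO and above 0 in all 12 in WT lungs. Heart muscle markers were below 0 in 9 of 9 in KO (median -1.61, 5 with an unadjusted p under 0.05) and 9 of 10 in WT, summing to 101 to 331 CPM at 18 months and 169 to 991 CPM at 10 months in KO lungs. Neutrophil markers were below 0 in 9 of 9 in KO (median -0.48, 4 with an unadjusted p under 0.05) and 7 of 8 in WT, summing to 144 to 201 CPM at 18 months and 177 to 454 CPM at 10 months in KO lungs. None of these markers was called, and their part was not tested.

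Across libraries, each less the mean of its group, Alas2 followed the alpha pair closely (Pearson r = 0.981 over 23 libraries, 0.983 in the 17 adult libraries and 0.977 in the 6 embryos), as did the beta pair (r = 0.940). Slc4a1 followed it in adult lungs (r = 0.749) and not in embryos (r = 0.10), and Kel had r = 0.12, Hbb-y -0.14 and Hba-x -0.14 over the 23 libraries. Among 14548 features with a mean of at least 1 CPM, the 10 most like the alpha pair outside the members included Bpgm (0.867), Hbb-b2 (0.862), Ube2l6 (0.828), Padi4 (0.802), Tcf23 (0.798), Ip6k3 (0.789), Prdx6 (0.785), Wipf3 (0.779) and Epb4.1 (0.774). The 10 most like Alas2 included Bpgm (0.849), Hbb-b2 (0.844), Tcf23 (0.832), Wipf3 (0.828), Ube2l6 (0.811), Epb4.1 (0.805), Apol11b (0.799), Prdx6 (0.799) and Ip6k3 (0.798). Hbb-b2 stands in both lists by its equality with Hbb-bt. These values describe the libraries, whose points share group, scaling and depth.

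**Figure D4:**
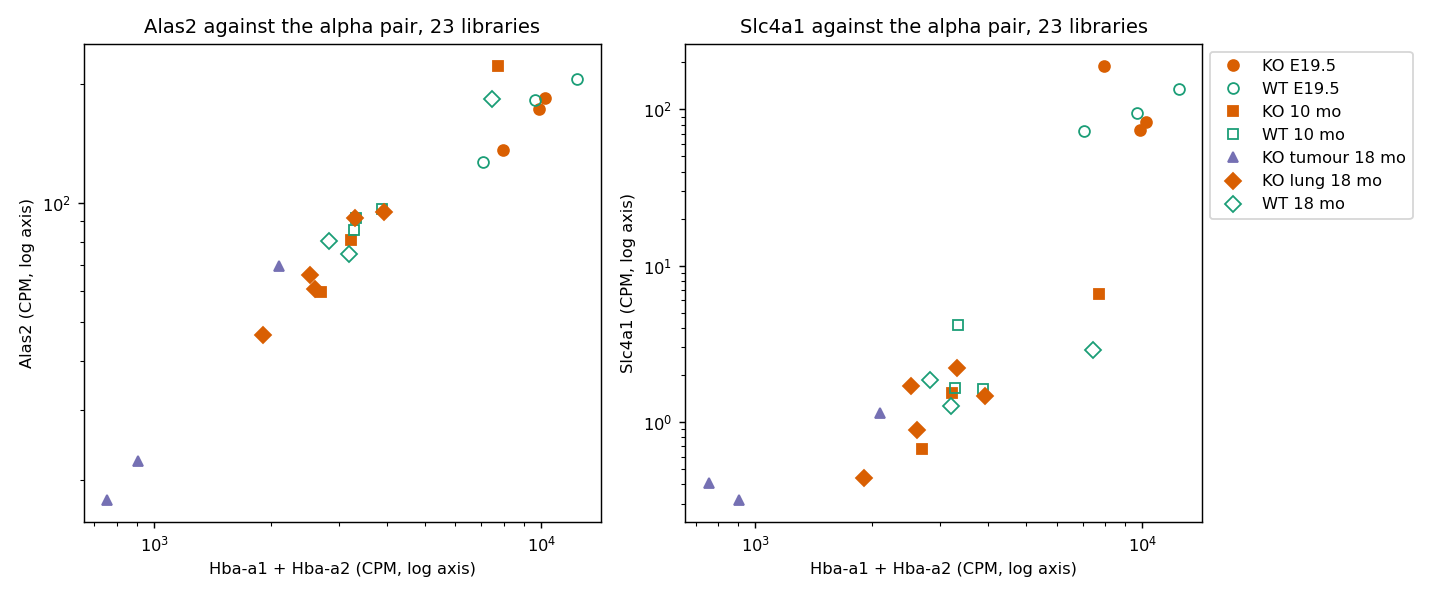
Alas2 (left) and Slc4a1 (right) against the alpha pair, each point 1 of the 23 libraries, in CPM on log axes, marked by group. Alas2 lies along 1 band through all ages and tumours, while Slc4a1 lies in 2 clouds, embryos at 72.9 CPM or more and all others at 6.598 CPM or less.

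Bpgm, which makes the regulator of oxygen release in red cells, was at nearly the same level in tumour and lung of each animal, with log2 ratios of -0.09, -0.19 and -0.08 in animals 1, 3 and 6.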

How the data were processed

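Total RNA of mouse lung was sequenced. Per the submitters' processing notes, Trimmomatic 0.36, STAR 2.5.2b and RSEM 1.3.0 were used with mm10; the strand setting of the counting is not given in the sources used here. The authors deposited RSEM expected counts and FPKM values per gene for all 23 libraries. RSEM shares reads among near copies by likelihood, so the split within a globin pair is an estimate, and values for the pairs, Hbb-b1 and Hbb-b2 are uncertain gene by gene.

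Here expected counts were rounded to whole numbers after summing the pairs and tested in R 4.3.3 with robust quasi-likelihood fits of edgeR 4.0.16, after its default filter and TMM factors. Each comparison had a fit of its own, and p-values were adjusted over all genes it tested (Benjamini-Hochberg). The deposited FPKM served for ratios between genes and for limma 3.58.1 on log2(FPKM + 0.1). Alternatives were DESeq2 1.42.0, total-count scaling, scaling without globins, no filter, other pseudocounts, 1 fit over all libraries, a replicate block and each library left out. The rule named all members, and per list up to 4 called genes with the smallest adjusted p (up to 2 where none was called). Some genes that the rules name are not reported here. The lists were other globins, regulators, haem synthesis, membrane, cytosol, haem clearance, and markers of platelets, neutrophils, hepatocytes, heart muscle, endothelium and epithelium; Hbb-bh2 was at 0 in all libraries. Members and lists were chosen with earlier results of these data known. Scripts were tested on simulated data. Tumours and KO lungs share animal codes in 3 pairs, whose residuals correlated at 0.46, -0.01 and 0.03; other replicate numbers name individuals and pair none. No pair of libraries of a group agreed within sampling noise (chi-square per degree of freedom 6.72 to 228 over 28 pairs).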

Additional observations from a re-analysis of the deposited data

Results flagged for a closer look

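In the 5 KO non-tumour lungs at 18 months, the one group large enough for a test of single libraries, KO lung 6 stood apart from the other 4 for Hbb-y, with 0.0410 CPM from 1 read, where the others had 0. As a share of adult beta globin per length, this read came to 0.00178%, again with 0 in the other 4 lungs. Of 28 quantities tested these 2 were picked out, both from that single read, and a test of this kind picks out some groups by chance.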

How the results depend on the processing

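Of 833 values of single units under alternatives, 775 kept their direction and their side of the threshold, 19 became called, 1 was no longer called (Alas2 in WT lungs, 10 months over E19.5, in 1 fit over all libraries) and 38 changed sign, none of them called before or after. Scaling by total counts or without globins changed no count of called units. Between tumours and KO lungs no unit was called, against 1 with DESeq2, 1 in 1 fit over all libraries, 1 with the 4 beta rows summed and 3 without KO animals 6 and 7, and 0 to 3 with each library left out. The main fit called 13.8% of all genes. The shares called by the other fits are not given here, so these counts alone are no result about the units. Between 10 months and E19.5 in KO lungs 5 units were called, where 60.5% of all genes were, and 5 to 8 with each library left out. Of the 5 only Slc4a1 was well counted at both ages. Hbb-y, Hba-x, Klf1 and Kel passed the filter only through the embryos, so their calls follow in part from the filter. Signs changed for the beta pair at E19.5 in 1 fit over all libraries (0.000153), with pairs not summed (0.00579) and with 4 rows summed (0.0895). They changed for Hbb-y at E19.5 with limma at a pseudocount of 0.1 (-0.248, also with no filter) or 1 (-0.215), and for Slc4a1 at 10 months with limma at 0.1 (-0.138, also with no filter).

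Leaving out each library in turn, the log2 fold change of KO over WT at E19.5 ran -0.24 to 0.157 for the alpha pair, -0.171 to 0.188 for the beta pair, -0.954 to 0.485 for Hbb-y, -1.08 to 0.266 for Hba-x, -0.238 to 0.0888 for Alas2, -0.472 to 0.57 for Kel and -0.351 to 0.463 for Slc4a1. At 10 months it ran -0.254 to 0.644 for the alpha pair, -0.0858 to 0.81 for the beta pair, -0.39 to 0.727 for Alas2 and -1.16 to 0.824 for Slc4a1, and at 18 months -0.673 to 0.196 for the beta pair. For 18 over 10 months it ran -0.867 to 0.107 for the beta pair, -1.08 to 0.0363 for Alas2 and -1.61 to 0.259 for Slc4a1 in KO lungs and -0.214 to 0.607 for the alpha pair, -0.167 to 0.591 for the beta pair, -0.238 to 0.525 for Alas2 and -0.66 to 0.285 for Slc4a1 in WT lungs. The difference in genotype effect between 10 months and E19.5 ran -0.184 to 0.706 for the alpha pair.

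With the replicate block, Hbb-y at E19.5 had -0.175 and Slc4a1 at 10 months -0.145. Between 10 months and E19.5 in KO lungs 7 units in place of 5 were called, among them units that passed the filter only through the embryos. Only the tumour pairs share animals, so elsewhere the block uses a number alone. It called no unit between tumours and KO lungs, where only animals that gave both were kept, and changed no other count. Fewer than 9 reads a library of Hbb-y, Hba-x, Kel and Klf1 in adult lungs limit what can be said of them there.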
